A study of Mus musculus with 20 samples.

Results

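The 10 genes described here mark the oligodendrocyte lineage from the precursor cell to the newly formed oligodendrocyte: Pdgfra, Cspg4, Olig1, Olig2, Sox10, Nkx2-2, Gpr17, Bcas1, Enpp6 and Myrf. They were chosen by name, and the values of all their annotated transcripts were summed per gene, which gave 45 transcripts of 10 genes out of 113580 transcripts of 35580 genes. RNA-seq was made from hippocampus and neocortex (cerebral cortex in the labels) of miR-324-null and WT male C57BL/6J mice of 13.5 months, with 5 samples in each of the 4 groups. miR-324-null mice carry a deletion of the Mir324 locus, made with CRISPR in the fertilised egg, in every cell of the body, and WT mice carry both intact copies. The founders were made on a mixed background and then backcrossed to C57BL/6J, and no gene of the 10 lies on chromosome 11, where Mir324 is. Each sample is whole tissue, so that fewer cells of a type and less RNA per cell cannot be told apart in any of the values.

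Oligodendrocyte precursor cells divide throughout adult life and are found in both grey and white matter. They carry the receptor of platelet-derived growth factor alpha (Pdgfra) and the NG2 proteoglycan (Cspg4), and on leaving the cell cycle they lose both, pass through a short-lived state that carries the receptor Gpr17, and then turn on Enpp6 and the myelin programme under the transcription factor Myrf. Olig1, Olig2 and Sox10 are transcription factors that stay on through most of the lineage. microRNAs repress transcripts whose 3′UTR pairs with bases 2 to 8 of the microRNA, the seed.

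Both arms of miR-324 were set against the 3′UTRs of the 10 genes to show which of them hold a match to a seed of the deleted microRNA. The mature sequences are those of RefSeq, with the seed in capitals, and both lie on chromosome 11 (+ strand, GRCm38).
miR-324-5p (chr11:70012060-70012082): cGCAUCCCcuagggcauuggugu
miR-324-3p (chr11:70012095-70012114): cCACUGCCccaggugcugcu
A site was a stretch GGGATGC for the 5p arm or GGCAGTG for the 3p arm on the sense strand of an annotated 3′UTR (7mer-m8), called 8mer where an A followed. The 5p arm had 3 sites, in Enpp6, Olig1 and Gpr17, and the 3p arm had 2 sites, in Myrf and Sox10. Pdgfra, Cspg4, Olig2, Nkx2-2 and Bcas1 had no such stretch in the annotated 3′UTRs. The study describes 2 forms of the 3p arm with different seeds. Only the 3p seed printed here was searched, and shorter matches were not sought, so these 5 genes may hold other matches. The sites of 4 genes are given with their flanks, read from GRCm38 on the strand of the gene, with the stretch that pairs with the seed in capitals and its position in brackets.
Enpp6, 5p arm, 8mer (chr8:47095336-47095342, + strand): catcacaaggGGGATGCaatgttgcatc
Olig1, 5p arm, 7mer-m8 (chr16:91271332-91271338, + strand): tcggtggttgGGGATGCgaagtggagag
Myrf, 3p arm, 7mer-m8 (chr19:10210366-10210372, - strand): tgcctcctgaGGCAGTGccacagccggg
Sox10, 3p arm, 7mer-m8 (chr15:79155845-79155851, - strand): cctcaggcttGGCAGTGgaggaggctgc
Such stretches are common. Among genes with a longest 3′UTR within 10% of the same length, 17.9% held a 5p stretch for the length of Enpp6, 7.81% for that of Olig1 and 22.5% for that of Gpr17, and 19.9% held a 3p stretch for that of Myrf and 9.15% for that of Sox10. Over all 21173 genes with a 3′UTR the shares were 8.19% for the 5p arm and 14.1% for the 3p arm. A match is a description of the letters and not a measured site.

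The 20 libraries held 12752439 to 19617765 estimated counts. The tissue labels were in keeping with their markers: the dentate gene Prox1 had a mean of 99.4 CPM (counts scaled to a common library size) in WT hippocampus and 16.7 in WT neocortex, and the cortical layer gene Tbr1 had 47.5 and 148 CPM. All 8 hippocampal field genes listed were higher in hippocampus in both genotypes. In 3 libraries, WT hippocampus replicate 3, miR-324-null hippocampus replicate 5 and miR-324-null neocortex replicate 2, genes of the choroid plexus (Ttr and 7 others) summed to 4606, 3942 and 812 CPM, which is 56.2, 33.5 and 13.6 times the median of their groups. Striatal genes summed to 293 to 737 CPM in miR-324-null neocortex and to 197 to 475 CPM in WT neocortex. These libraries were kept, and each count of genes was also made without the 3 libraries high in choroid plexus genes.

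All 10 genes were measured in every sample. Per unit of length (TPM), the mean level over the 20 samples was highest for Bcas1, a cytoplasmic protein of early myelinating cells, at 167 ± 27.6 TPM (SD). It was followed by Olig1 at 69.4 ± 6.22 TPM, Sox10 at 31.7 ± 3.58, Myrf at 23.4 ± 4.01, Olig2 at 17.2 ± 1.64, Pdgfra at 13.6 ± 1.84, Gpr17 at 12.3 ± 1.39, Cspg4 at 9.75 ± 0.959, Enpp6 at 4.76 ± 1.36 and Nkx2-2 at 3.84 ± 1.1. Bcas1 was above Olig1, Olig1 above Sox10 and Cspg4 above Enpp6 in all 20 samples taken as a whole, the lowest sample of the one being over the highest of the other. The ranges of the remaining neighbours in this order overlapped. Olig1 and Olig2 sit next to each other on chromosome 16 (Olig2 chr16:91225457-91228677 and Olig1 chr16:91269772-91271933, both + strand, 41094 bases apart), and Olig1 was at a mean TPM of 69.4 against 17.2 for Olig2. The spread differed between genes. The highest sample was 1.35 times the lowest for Olig1, 1.48 times for Cspg4, 2.31 times for Enpp6 and 3.29 times for Nkx2-2 on the TPM scale. Nkx2-2, a transcription factor of the precursor and early oligodendrocyte, rested on 25 to 80 estimated counts per sample and Enpp6, a choline phosphodiesterase of newly formed oligodendrocytes, on 83 to 301, whereas the other 8 genes had at least 273.

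**Figure D1:**
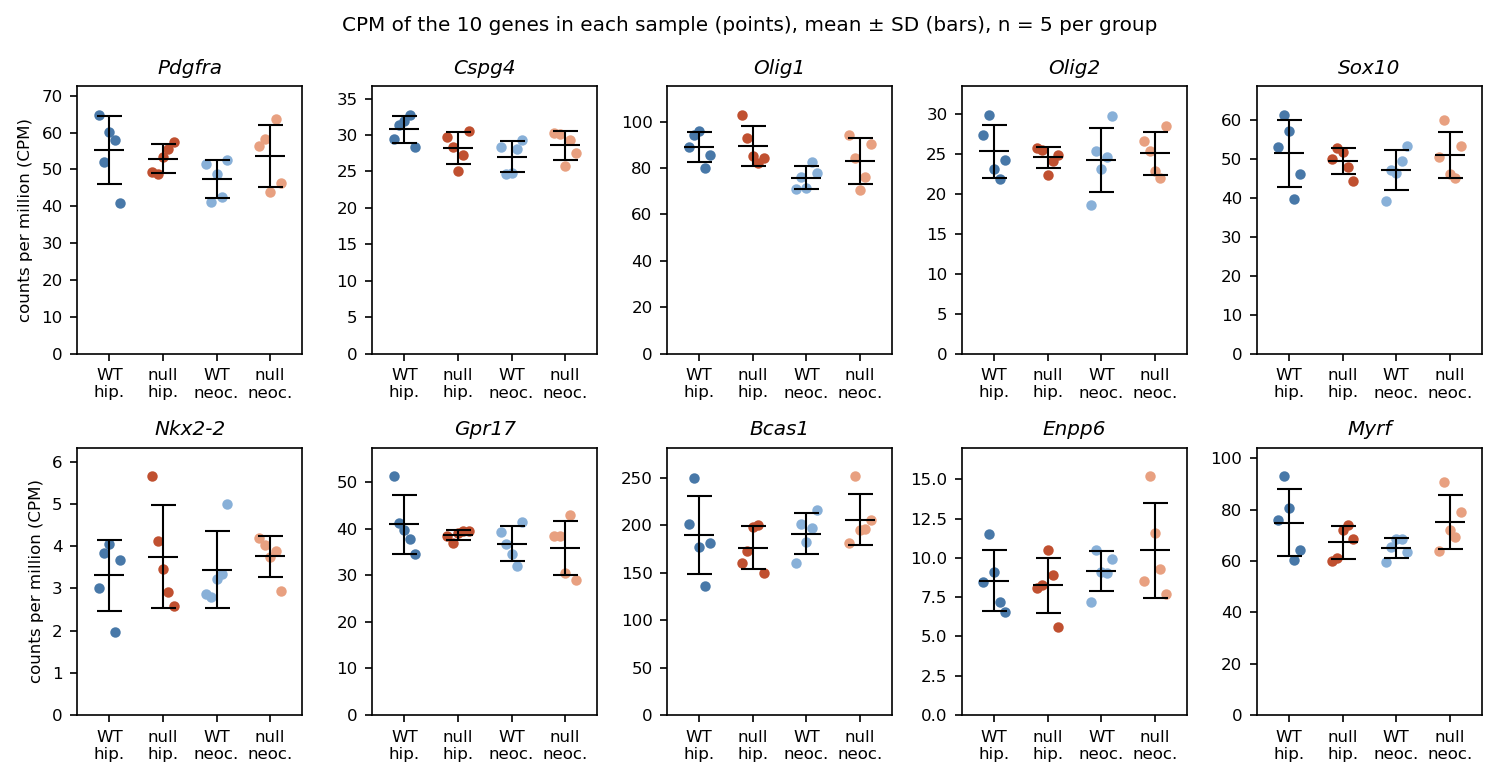
Level of each gene in CPM (vertical axis from 0) in the 5 samples of each of the 4 groups (hip., hippocampus; neoc., neocortex; null, miR-324-null), with points for samples and bars for the mean ± SD. The groups of every gene overlap in each of the 4 comparisons of genotype or tissue.

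The comparison of genotypes asked whether the lineage genes differ when miR-324 is missing. In the hippocampus none of the 10 genes passed an adjusted p value of 0.05 (quasi-likelihood test of edgeR, Benjamini-Hochberg adjusted over 14796 genes), where 0.115% of all genes tested did, and none was under 0.05 before adjustment, where 11.1% of all genes were. DESeq2 also called 0. The log2 fold changes (miR-324-null minus WT) lay between -0.15 and 0.17 with a median of -0.06, 8 of them negative, while 50.3% of all genes tested were positive and their median was 0.00. The smallest adjusted p value was 0.534.

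In the neocortex none of the 10 genes passed either (edgeR, adjusted over 14930 genes, of which 0.315% passed; DESeq2 also called 0). Of the 10 genes 9 were higher in miR-324-null mice, with a median log2 fold change of 0.12, against 51.9% of all genes tested that were higher and a median of 0.00. The 10 genes share the same 10 samples, so their directions are not independent of each other. Myrf was the only one under 0.05 before adjustment, as were 12.2% of all genes. No gene had groups that did not overlap in either tissue, where 2.47% of all hippocampal and 2.24% of all neocortical genes did.

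The precursor genes gave the following values. Pdgfra (chr5:75152292-75198215, + strand), the receptor that keeps precursors dividing, was at 51.4, 41.2, 48.8, 42.6 and 52.6 CPM in WT neocortex and at 56.5, 58.2, 43.8, 63.8 and 46.4 CPM in miR-324-null neocortex. Of the 5 miR-324-null samples 3 were above every WT sample and the other 2 lay within the WT range, and the log2 fold change was 0.19 (95% interval -0.04 to 0.41, adjusted p = 0.510 by edgeR). In the hippocampus Pdgfra was at 64.9, 52.1, 60.3, 58.1 and 40.9 CPM in WT and at 49.2, 48.7, 53.5, 55.7 and 57.5 CPM in miR-324-null, all 5 of the latter inside the WT range (log2 fold change -0.06, 95% interval -0.28 to 0.17, adjusted p = 0.878 by edgeR). Cspg4 (chr9:56865033-56899870, + strand) had log2 fold changes of -0.12 (95% interval -0.27 to 0.03) in the hippocampus and 0.08 (-0.06 to 0.23) in the neocortex. Both of these genes are also carried by other cells of brain vessels and coverings: Cspg4 by pericytes and Pdgfra by fibroblasts. The 8 pericyte genes listed summed to 270 to 315 CPM in WT hippocampus, 262 to 291 in miR-324-null hippocampus, 267 to 303 in WT neocortex and 257 to 279 in miR-324-null neocortex. The 8 fibroblast genes summed to 73.4 to 304, 112 to 213, 58.0 to 130 and 30.9 to 111 CPM in the same order. All of these listed genes were above 0 in every sample, and their part in the values of Pdgfra and Cspg4 was not tested.

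For the transcription factors of the whole lineage the intervals held 0 in both tissues. Olig1, which holds a 5p stretch, had a log2 fold change of 0.01 (95% interval -0.15 to 0.17) in the hippocampus and 0.13 (-0.04 to 0.30) in the neocortex. Olig2 stood at -0.04 (-0.23 to 0.15) and 0.05 (-0.19 to 0.28), and Sox10 (chr15:79154908-79165240, - strand), which holds a 3p stretch, at -0.06 (-0.28 to 0.17) and 0.12 (-0.08 to 0.31). Nkx2-2 (chr2:147177546-147194243, - strand), with its low counts, had the widest interval in the hippocampus, from -0.35 to 0.70 around 0.17.

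Of the genes of the committed and newly formed cell, Gpr17 (chromosome 18), a receptor present only for a short time in the lineage, had log2 fold changes of -0.08 (95% interval -0.27 to 0.11) in the hippocampus and -0.03 (-0.26 to 0.20) in the neocortex. In miR-324-null hippocampus its 5 samples lay at 36.9 to 39.5 CPM, inside the 34.6 to 51.3 CPM of WT. Bcas1 (chr2:170346991-170427845, - strand) stood at -0.10 (-0.39 to 0.20) and 0.11 (-0.09 to 0.31). Enpp6 (chr8:46986887-47096762, + strand), the gene with the 8mer, stood at -0.05 (-0.43 to 0.34) and 0.20 (-0.18 to 0.58). In miR-324-null neocortex Enpp6 was at 8.55, 15.2, 11.6, 9.31 and 7.69 CPM, against 7.22, 10.5, 9.07, 9.04 and 9.96 CPM in WT. The highest of these, replicate 2, is the library high in choroid plexus genes, and without it the log2 fold change was 0.03.

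Myrf (chr19:10208272-10240748, - strand), the membrane-bound factor that turns on myelin genes, showed the largest difference of the 10 in the neocortex. It was at 59.6, 65.5, 68.7, 68.7 and 63.4 CPM in WT and at 63.9, 91.0, 72.2, 69.5 and 79.3 CPM in miR-324-null. Of the 5 miR-324-null samples 4 were above every WT sample. The log2 fold change was 0.21 (95% interval 0.03 to 0.39, unadjusted p = 0.026, adjusted p = 0.335 by edgeR). Without miR-324-null replicate 2, the highest sample, it was 0.13 with an adjusted p of 0.50. In the hippocampus Myrf went the other way, at 76.1, 93.1, 80.5, 60.5 and 64.5 CPM in WT and 60.2, 61.2, 72.2, 74.0 and 68.8 CPM in miR-324-null, with a log2 fold change of -0.15 (-0.38 to 0.08, adjusted p = 0.634 by edgeR). The 3 WT samples of 76.1, 93.1 and 80.5 CPM were above every miR-324-null sample, and the lowest 2 samples were miR-324-null at 60.2 and WT at 60.5.

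**Figure D2:**
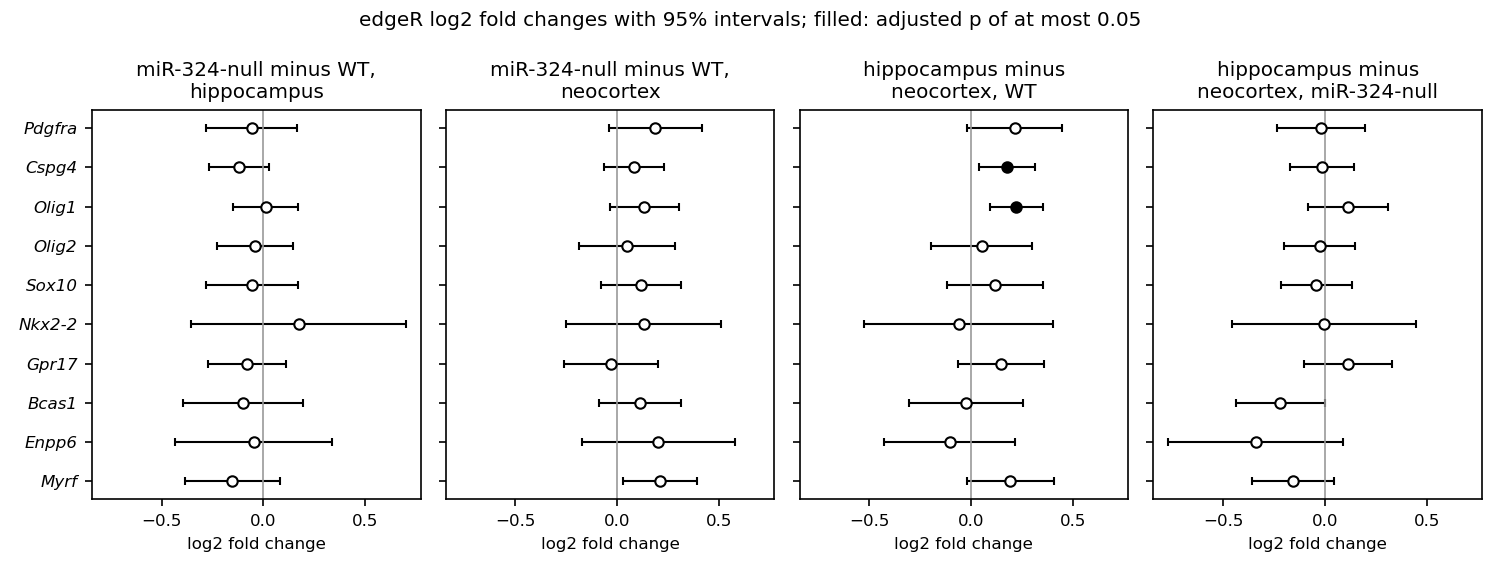
Log2 fold changes (horizontal axis) of the 10 genes from edgeR with 95% intervals in the 2 comparisons of genotype and the 2 of tissue, with filled points for an adjusted p value of at most 0.05. Cspg4 and Olig1 in the comparison of tissues in WT mice are the filled points.

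Whether the effect of genotype differed between the tissues was tested as an interaction in one fit of the 20 samples. None of the 10 genes passed (edgeR, adjusted over 15391 genes, 0.0195% of which passed; DESeq2 also called 0). Myrf was under 0.05 before adjustment, as were 5.57% of all genes, with a log2 difference (the hippocampal minus the neocortical effect) of -0.36 (95% interval -0.66 to -0.06, unadjusted p = 0.022, adjusted p = 0.863 by edgeR). Cspg4 followed at -0.20 (-0.39 to 0.00, unadjusted p = 0.052). The difference was negative for 9 of the 10 genes, with a median of -0.18 and the exception of Nkx2-2 at 0.05, while the median over all genes was 0.00. The 10 genes share the same 20 samples, so these signs are not independent of each other. They also restate the directions given above for each tissue. The library labels give no mouse for each sample, so it was not known whether the 2 tissues came from the same animals.

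The surroundings of the lineage were read from lists of further genes. Between genotypes 11.1% of all hippocampal genes tested and 12.2% of all neocortical ones were under 0.05 before adjustment by edgeR. The 5 lists of myelin, precursor, differentiating oligodendrocyte, lineage transcription factor and PDGF genes held 73 tested genes. Of these, 7 and 6 were under 0.05 before adjustment, a smaller share in each tissue. None of the 73 genes passed in either tissue by edgeR. DESeq2 called 0 of them in the hippocampus and 1 in the neocortex, the precursor gene C1ql1, named here after its value was seen, with a log2 fold change of 0.50 (adjusted p = 0.049 by DESeq2 and 0.148 by edgeR). The 20 myelin genes had a median log2 fold change of -0.09 in the hippocampus, with 4 positive, and 0.09 in the neocortex, with all 20 positive. They share the same samples, so their directions are not independent of each other. Their summed level was 5670 to 7106 CPM in WT neocortex, with a median of 6768. In miR-324-null neocortex it was 6112 to 9085 CPM, with a lower median of 6687. Mbp, the myelin basic protein, stood at -0.14 and 0.10. The 15 precursor genes had medians of -0.04 and 0.10, the most abundant of them, the phosphatase Ptprz1, standing at -0.04 and 0.18. The 14 tested genes of differentiating oligodendrocytes had medians of -0.08 and 0.05, with the kinase Fyn at 0.04 and 0.06. The 19 tested lineage transcription factors had medians of -0.03 and 0.03, with Tcf4 at -0.03 and -0.05. The PDGF ligands and the receptor Pdgfrb (5 genes) had medians of -0.15 and -0.04, with Pdgfa, the ligand of Pdgfra, at -0.02 and -0.04. Over all genes tested the medians were 0.00 in both tissues. In the neocortex the 8 striatal genes were all positive with a median of 1.02 and the 5 tested choroid plexus genes with a median of 1.55, and none passed by edgeR (7 and 4 were under 0.05 before adjustment, and DESeq2 called 0 and 1). The 6 tested hippocampal field genes were also all positive in the neocortex, with a median of 0.82 (0 passed by edgeR, 2 by DESeq2 and 4 were under 0.05 before adjustment). Among them Fibcd1 stood at 1.16 (adjusted p = 0.085 by edgeR) and Zbtb20 at 0.44 (adjusted p = 0.305). The summed level of the hippocampal field genes was 143 to 156 CPM in WT and 160.5 to 217 CPM in miR-324-null neocortex, with no overlap. The 8 neocortical layer genes had a median of -0.24, with 1 positive, and the 8 neuronal genes of -0.10, with 3 positive, and 5 of each were under 0.05 before adjustment (0 passed by edgeR, and 1 and 0 by DESeq2). The part of these lists in the neocortical values of the lineage genes was not tested. Without replicate 2 of miR-324-null neocortex, the library high in choroid plexus genes, the neocortical log2 fold change was 0.03 in place of 0.20 for Enpp6, 0.03 in place of 0.11 for Bcas1, 0.05 in place of 0.12 for Sox10 and 0.13 in place of 0.21 for Myrf.

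The comparison of tissues showed a small number of differences. In WT mice 2 of the 10 genes, Olig1 and Cspg4, passed by edgeR, both higher in hippocampus. Over all 14894 genes tested 36.1% passed and 18.1% were higher in hippocampus, so the share among the 10 genes was near the latter. Olig1 was at 89.2, 94.2, 96.0, 80.2 and 85.7 CPM in WT hippocampus and at 70.9, 76.1, 71.3, 82.8 and 77.9 CPM in WT neocortex. All but the lowest hippocampal sample were above every neocortical sample, and the log2 fold change was 0.22 (95% interval 0.09 to 0.35, adjusted p = 0.011 by edgeR). Olig1 passed in all 10 alternative fits and in all 10 fits that left out a sample. Cspg4 was at 29.4, 31.4, 31.9, 32.8 and 28.4 CPM in WT hippocampus and at 28.3, 24.7, 24.8, 28.1 and 29.3 CPM in WT neocortex, where 4 of the 5 hippocampal samples were above every neocortical sample. Its log2 fold change was 0.17 (0.04 to 0.31, adjusted p = 0.047 by edgeR). Cspg4 passed in 4 of 10 alternative fits and in 5 of the 10 fits without a sample, its adjusted p then ranging from 0.027 to 0.114. Without WT hippocampus replicate 3, the library high in choroid plexus genes, Olig1 alone passed.

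Pdgfra, at a log2 fold change of 0.21 (-0.02 to 0.44), and Myrf, at 0.19 (-0.02 to 0.40), were of like size in WT mice but did not pass (adjusted p = 0.145 and 0.152 by edgeR). Without WT hippocampus replicate 5, the lowest sample of Pdgfra at 40.9 CPM, Pdgfra passed as well with a log2 fold change of 0.31 (adjusted p = 0.011 by edgeR). Without WT hippocampus replicate 4, the lowest WT hippocampal sample of Myrf at 60.5 CPM, Myrf stood at 0.26 (adjusted p = 0.039 by edgeR). Each of the 2 genes passed in only 1 of the 10 fits without a sample and in 0 of the 10 alternative fits. In the fits without a sample their adjusted p values by edgeR ran up to 0.32 and 0.381. Bcas1 and Enpp6 stood at -0.02 (-0.30 to 0.25) and -0.10 (-0.43 to 0.22). None of the 10 genes had groups that did not overlap, whereas 26.4% of all genes tested did.

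In miR-324-null mice none of the 10 genes passed (edgeR, adjusted over 15033 genes, 27.4% of which passed), and DESeq2 also called 0. None of the 10 was under 0.05 before adjustment by edgeR, where 5789 of all 15033 genes tested were. Again no gene had groups that did not overlap, against 20.9% of all genes. Olig1 was at 103, 93.0, 85.3, 82.3 and 84.1 CPM in hippocampus and at 94.1, 84.1, 70.4, 76.1 and 90.4 CPM in neocortex, with a log2 fold change of 0.11 (-0.08 to 0.31). Cspg4 stood at -0.01 (-0.17 to 0.14). The lowest value was that of Enpp6 at -0.34 (-0.77 to 0.09, adjusted p = 0.231 by edgeR), followed by Bcas1 at -0.22 (-0.44 to 0.00, adjusted p = 0.134). Enpp6 passed when the fit took transcript length into account (log2 fold change -0.45, adjusted p = 0.048 by edgeR). Without miR-324-null hippocampus replicate 5 and miR-324-null neocortex replicate 2, the lowest and the highest sample of Enpp6 and both high in choroid plexus genes, its log2 fold change was -0.05.

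Other genes of the lineage were read in the same comparison of tissues. In WT mice 18 of the 73 listed genes were higher and 6 lower in hippocampus by edgeR, and in miR-324-null mice 10 and 8. Of all genes tested 36.1% and 27.4% passed, so that the listed genes passed in somewhat smaller shares than the background. No myelin gene passed in either genotype, with medians of 0.04 and -0.13. Of the 15 precursor genes 6 were higher and 1 lower in WT mice and 3 higher and 2 lower in miR-324-null mice. Among them C1ql1, a secreted C1q-like protein, stood at 0.71 and 0.50 and the protocadherin Pcdh15 at -0.57 and -0.58. Sox6, a transcription factor which holds precursors undifferentiated, stood at -0.37 in miR-324-null mice. Of 14 tested genes of differentiating oligodendrocytes 5 and 3 were higher and 3 and 2 lower. Tcf7l2, a Wnt effector, stood at 1.49 in WT mice (standard error 0.54, adjusted p = 0.046 by edgeR). Its mean was 14.4 CPM in WT hippocampus, 6.35 in miR-324-null hippocampus, 5.07 in WT neocortex and 5.28 in miR-324-null neocortex. Rras2 stood at 0.60 in miR-324-null mice, Chn2 at -1.05 and -1.22 and Tmem163 at -0.70 and -0.69. Of 19 tested lineage transcription factors 6 and 4 were higher and 2 and 3 lower, with the zinc finger factor St18 at 1.41 and 1.30, Id2, an inhibitor of basic helix-loop-helix factors, at -0.79 and -0.78 and Sox5 at -0.75 and -0.55. Many of these genes are also used by neurons and astrocytes. Of the PDGF genes Pdgfd was higher in WT hippocampus (0.89) and Pdgfc lower in miR-324-null hippocampus (-0.39). The astrocyte gene Gfap was higher in hippocampus by 1.92 and 1.74, and 6 and 4 of 8 neuronal genes were lower there, with Snap25 at -0.69 and -0.36. Of 8 genes in each list, 5 and 1 choroid plexus genes and 2 and 2 fibroblast genes were higher in hippocampus, 3 and 8 striatal genes and 7 and 7 neocortical layer genes were lower, 1 and 0 pericyte genes and 0 and 1 endothelial genes were lower and 1 and 0 microglial genes were higher.

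How each of the 10 genes followed the amount of myelin transcripts was asked within each tissue. A myelin score was the mean log2 CPM of the 20 myelin genes, none of them among the 10, and it was fitted together with genotype over 10 samples of a tissue. The score was between 6.07 and 6.83 in WT hippocampus, 6.20 and 6.51 in miR-324-null hippocampus, 6.22 and 6.60 in WT neocortex and 6.38 and 6.88 in miR-324-null neocortex. A slope of 1 means that a gene rose in proportion to the myelin genes.

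The genes are grouped here by the size of their slope and not by stage. Bcas1 had a slope of 1.03 (95% interval 0.64 to 1.42) in the hippocampus and 0.95 (0.64 to 1.26) in the neocortex, Sox10 0.80 (0.50 to 1.09) and 0.84 (0.45 to 1.22), Myrf 0.74 (0.37 to 1.11) and 0.77 (0.41 to 1.13), and Enpp6 1.17 (0.52 to 1.82) and 1.41 (0.59 to 2.24). The intervals of these 4 genes lay above 0 in both tissues. Pdgfra had slopes of 0.08 (-0.50 to 0.67) and -0.08 (-0.80 to 0.65), Cspg4 -0.13 (-0.50 to 0.24) and 0.07 (-0.40 to 0.55) and Gpr17 0.29 (-0.17 to 0.76) and -0.12 (-0.87 to 0.62). Olig1, at 0.26 (-0.12 to 0.65) and 0.18 (-0.39 to 0.74), and Olig2, at 0.40 (-0.02 to 0.81) and 0.62 (-0.09 to 1.33), stood between, and Nkx2-2 had wide intervals around 0.92 and 0.53. Differences between the slopes of 2 genes were not tested.

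With adjustment over all genes, 0 of the 10 genes passed in the hippocampus and 1, Bcas1, in the neocortex (adjusted p = 0.045 by edgeR), where 0.0388% and 0.0579% of all genes tested passed. Of the 6 and 9 genes that passed, 5 and 2 were myelin genes of the score itself. Before adjustment 4 of the 10 genes in each tissue (Sox10, Bcas1, Enpp6 and Myrf) were under 0.05, against 4.63% and 5.95% of all genes tested. Sox10 had adjusted p values of 0.078 and 0.136 and Bcas1 0.085 in the hippocampus. With 1 sample left out, the neocortical slopes of Sox10, Myrf and Enpp6 ran from 0.71 to 0.99, 0.63 to 0.87 and 0.94 to 1.48. Their adjusted p values by edgeR then ran up to 0.700, 0.787 and 0.883. In the hippocampus none of the 4 genes passed in such fits, the lowest adjusted p being 0.066 for Bcas1 by edgeR. The slope of Bcas1 in the neocortex stayed between 0.87 and 0.99 when 1 sample was left out, but its adjusted p value then ran from 0.027 to 0.487 and 1 of the 10 fits kept it below 0.05, the fit without miR-324-null replicate 5. Without miR-324-null replicate 2, which has the highest myelin score and is high in choroid plexus genes, the slope was 0.99 with an adjusted p of 0.487. None of the genes tested in the precursor, differentiating oligodendrocyte, lineage transcription factor and PDGF lists passed in either tissue. The precursor genes had median slopes of -0.06 and 0.19, and the myelin genes, which make up the score, 0.97 and 0.998. The genes of differentiating oligodendrocytes had medians of 0.149 and 0.150, with 2 and 1 of 14 under 0.05 before adjustment. The lineage transcription factors had medians of 0.107 and 0.245, with 5 and 3 of 19 under 0.05, and the PDGF genes of 0.102 and 0.312. The neuronal genes had medians of 0.05 and -0.07 and the astrocyte genes of 0.22 and 0.15. No gene in the lists of other cell types and regions passed. The 8 choroid plexus genes had medians of -0.70 and 4.13, and in the neocortex all 8 were under 0.05 before adjustment, with Ttr at 7.08 and Kl at 3.38 (adjusted p = 0.219 and 0.485 by edgeR). The endothelial genes had medians of -0.16 and 0.27, with 2 of 8 under 0.05 in the neocortex and Slco1a4 at 0.87 (adjusted p = 0.210 by edgeR), and the microglial genes of 0.29 and 0.36. The medians were 0.06 and 0.25 for pericyte, -0.14 and -0.71 for fibroblast, -0.08 and -0.87 for striatal, -0.10 and 0.14 for hippocampal field and 0.36 and -0.26 for neocortical layer genes. The part of these lists in the slopes of the 10 genes was not tested.

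**Figure D3:**
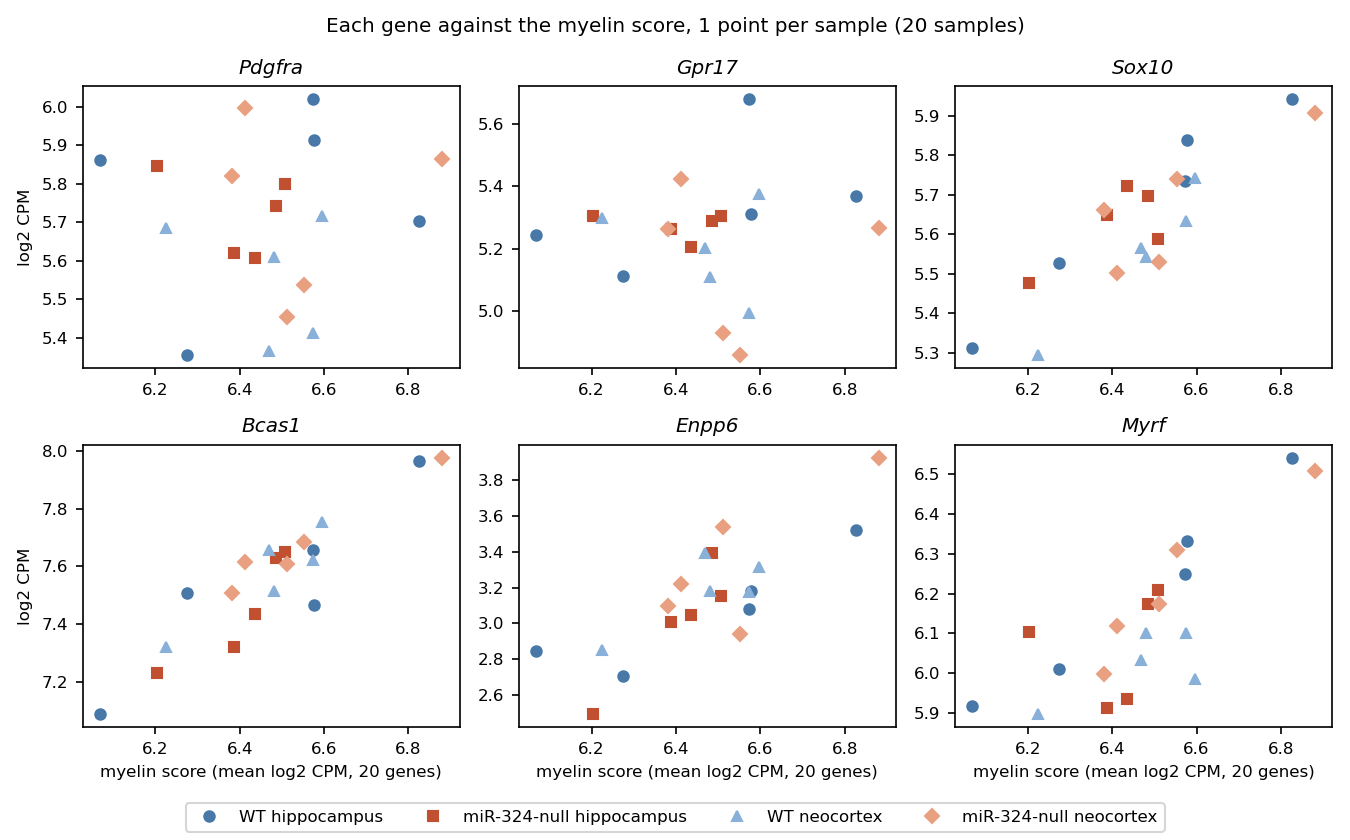
Log2 CPM (vertical axis) of 6 of the genes against the myelin score (horizontal axis, mean log2 CPM of 20 myelin genes), with 1 point for each of the 20 samples, coloured by group. Sox10, Bcas1, Enpp6 and Myrf are higher in samples with a higher score, while Pdgfra and Gpr17 are spread over the same range of scores without such an order.

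**Figure D4:**
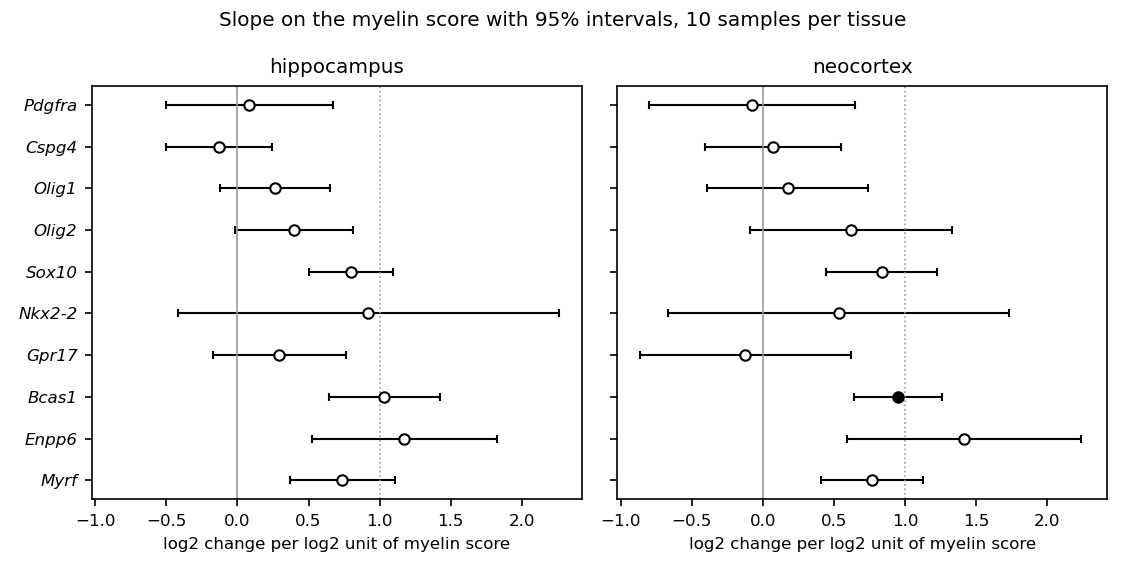
Slope of each gene on the myelin score with its 95% interval (horizontal axis, log2 change per log2 unit; dotted line at 1) in 10 samples of hippocampus and 10 of neocortex, with a filled point for an adjusted p value of at most 0.05. The intervals of Sox10, Bcas1, Enpp6 and Myrf lie above 0 in both tissues.

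The genes most alike in pattern were sought for Pdgfra, Gpr17 and Myrf by Pearson's r of log2 CPM over the 20 samples among 15391 genes, leaving out the 10 genes themselves. Closest to Pdgfra were Ptprz1 (r = 0.816), a precursor gene, Slc1a3 (0.810), the astrocyte glutamate transporter, and Tmod2 (0.776). Closest to Gpr17 were Csf1r (0.882), a microglial receptor, Plpp3 (0.881) and Fads2 (0.848), a fatty acid desaturase. Closest to Myrf were Slc44a1 (0.877), a choline transporter, Trf (0.862), the iron carrier of oligodendrocytes, and Gpr37 (0.847). After the mean of each group was subtracted, the nearest were Slc1a3 (0.856), Ednra (0.853) and Chd3 (0.818) for Pdgfra, Plpp3 (0.907), Fads2 (0.897) and Csf1r (0.872) for Gpr17, and Arhgef10 (0.909), Erbin (0.908) and Otud7b (0.904) for Myrf. The highest of 15391 correlations over 20 samples is large for any gene, and the samples share their tissue and library.

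Several of the genes are read out through more than 1 transcript, and the transcript that holds most of a gene was not always its full-length coding form. Of the 45 transcripts 23 held at least 5% of their gene's TPM in the mean of the 4 groups, and 11 had a mean estimated count below 1 in every group. Olig1, Olig2 and Gpr17 have 1 transcript each. Cspg4 is the clearest case: Cspg4-204, annotated as a retained intron of 3267 bases, held 63.3% ± 6.56 of the TPM of the gene in WT hippocampus, 65.6% ± 10.1 in miR-324-null hippocampus, 58.0% ± 7.37 in WT neocortex and 53.3% ± 10.3 in miR-324-null neocortex (SD, n = 5). The coding form Cspg4-201 of 8121 bases held 29.6% ± 6.16, 26.9% ± 10.9, 34.8% ± 8.84 and 38.1% ± 9.68. By estimated counts, which weigh a transcript by its length, Cspg4-201 held 50.2%, 46.0%, 55.7% and 58.8% instead.

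In Bcas1 the coding form Bcas1-208 (2222 bases) held 62.9% to 65.5% of the TPM in the 4 groups, with Bcas1-204, a processed transcript of 688 bases, at 16.8% to 17.9% and the coding Bcas1-201 at 11.8% to 15.5%. Sox10-203 and Sox10-201, of 2780 and 2713 bases, split their gene near the middle, but with wide spreads between samples: Sox10-203 held 50.5% ± 20.2 in WT hippocampus and 62.5% ± 16.8 in miR-324-null hippocampus. Pdgfra-201 held 86.9% to 92.2% of Pdgfra and Myrf-201 held 77.3% to 86.6% of Myrf. In Enpp6 the long coding form Enpp6-201, which carries the 8mer, held 55.2% to 68.0% of the TPM but 89.3% to 92.4% of the estimated counts, the rest of the TPM lying in short forms of few reads. Enpp6-206, a retained intron of 480 bases, held 22.9% ± 19.2 of the TPM in WT neocortex and 9.42% ± 13.2 in miR-324-null neocortex, and 2.85% and 0.965% of the counts. The sign of the neocortical genotype difference of Enpp6 differed between scales. The log2 fold change was 0.20 on counts and -0.07 when the mean transcript length of each sample was taken into account in edgeR. It was -0.0015 on log2(TPM + 0.5). The part of single transcripts in this turn of sign was not tested. Nkx2-2 showed the same turn, from 0.13 on counts to -0.11 with the lengths.

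**Figure D5:**
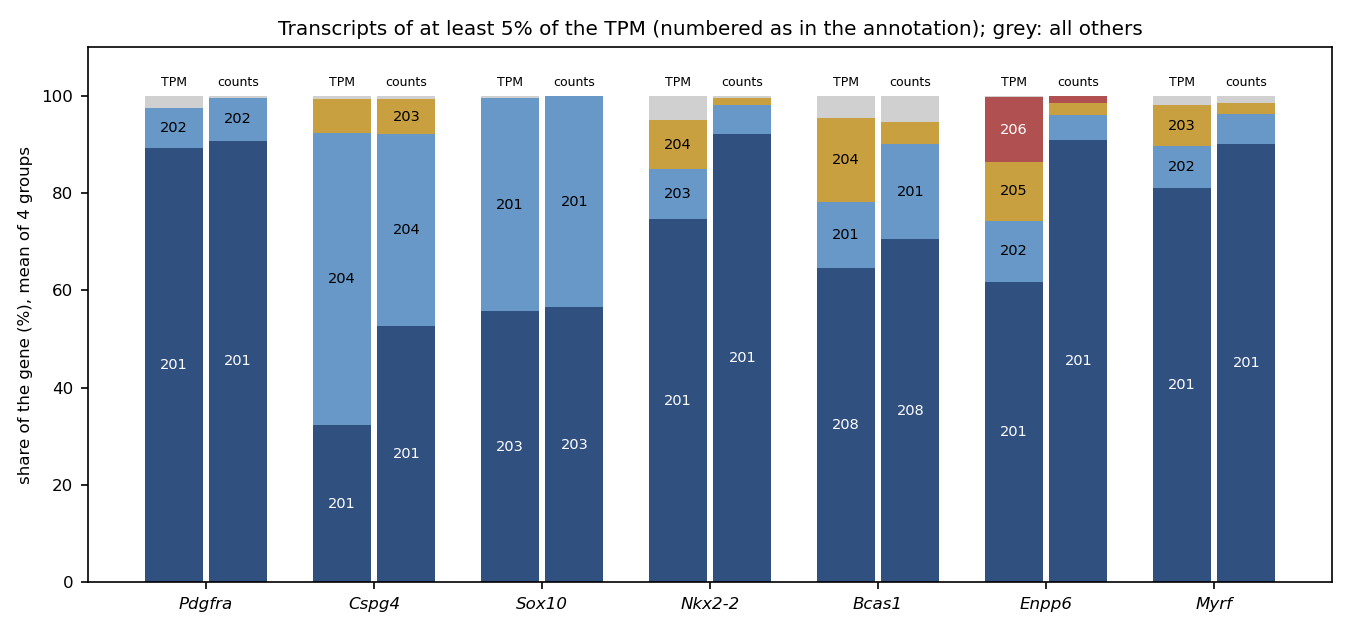
Share of each gene (vertical axis, percent, mean of the 4 groups) held by its transcripts, by TPM and by estimated counts, for the 7 genes with several transcripts; segments are transcripts with at least 5% of the TPM, numbered as in the annotation, and grey is the rest. Cspg4-204 leads by TPM and Cspg4-201 by counts, and the short forms of Enpp6 shrink by counts.

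Shares were compared between groups with an exact two-sided permutation test of 5 against 5 samples, whose smallest possible p is 0.0079. That test cannot pass the adjustment over the 33283 to 34717 transcripts tested unless a large part of them is at the smallest p, and it called 0 transcripts in every comparison. Of 20 transcripts of the 10 genes tested in the hippocampus between genotypes the smallest p was 0.063 (Pdgfra-202, 11.5% ± 6.34 in miR-324-null and 4.85% ± 3.18 in WT, exact permutation test, adjusted p = 1.0). Of 21 in the neocortex it was 0.032 (Bcas1-201, 15.5% ± 2.17 and 12.2% ± 1.98, exact permutation test, adjusted p = 0.769). Between the tissues it was 0.063 in WT mice (Myrf-202, 7.37% ± 2.53 in hippocampus and 11% ± 2.36 in neocortex) and 0.040 in miR-324-null mice (Bcas1-201, 11.8% ± 2.24 and 15.5% ± 2.17) by the exact permutation test. A limma fit of the shares, added after the data were seen, called 0.018%, 0.0202%, 0.0768% and 0.0203% of all transcripts in the comparisons of genotype in hippocampus and neocortex and of tissue in WT and miR-324-null mice, and none of them was a transcript of the 10 genes.

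Several of the genes overlap others on the opposite strand in the annotation: Pdgfra overlaps Gm42802 and Gm42803, Olig1 overlaps Gm15966, Nkx2-2 overlaps Nkx2-2os, Gpr17 overlaps Lims2 and Bcas1 overlaps Bcas1os1. Their transcripts share stretches of 123 to 344 bases with a transcript of the other gene when strand is ignored. The library kit keeps strand, and whether the counting used it is not given in the sources used here, so that reads of these stretches could have been split between the partners.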

How the data were processed

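Polyadenylated RNA was sequenced with a stranded kit (TruSeq Stranded mRNA). The authors quantified reads per transcript with kallisto against a mouse transcriptome and deposited, for each of the 20 samples, estimated counts, TPM and an effective length (a score of bases, not a level) per transcript. The processing notes name GRCh38, but the identifiers are those of mouse GRCm38, and 113580 of 115270 transcripts matched the GENCODE annotation. The rest held at most 0.556% of a sample's estimated counts and was left out.

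Estimated counts were summed per gene and rounded. edgeR 4.0.16 was used for each comparison on its own samples (TMM, filterByExpr, quasi-likelihood test, Benjamini-Hochberg adjustment over all genes tested, adjusted p value of at most 0.05), with DESeq2 and limma as alternatives, since the study's methods name DESeq2 on imported kallisto estimates. Levels are TMM-scaled CPM over all 20 samples, and TPM is used between genes. Transcript shares used genes of at least 1 TPM and transcripts with a mean share of 5% to 95%. The scripts were tested on simulated data. Members and gene lists were chosen with earlier results of these data known, and the exclusion of libraries high in choroid plexus genes was added after the data were seen. All 10 genes were named in each comparison, and of each list up to 3 genes with the largest change among those that passed, or the 2 most abundant where none passed. Some genes named by this rule, and an alternative myelin score, are not reported here. Samples are separate libraries. The labels do not say which came from the same mouse. The p values set a difference against the spread between these samples, which were taken as independent except in fits with a block. Intervals of fold changes are 95%.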

Additional observations from a re-analysis of the deposited data

Results flagged for a closer look

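In 1 case a sample stood apart from the other 4 of its group among the 40 groups of 5 examined (10 genes in 4 groups). Nkx2-2 was at 5.01 CPM in WT neocortex replicate 5, while the other 4 samples lay between 2.79 and 3.34 CPM, and the gap to the nearest was 0.755 of the whole range, above the limit of 0.71 for 5 samples. Chance flags about 1 in 20 such groups. Nkx2-2 rests on few counts, and this sample was kept in all fits.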

How the results depend on the processing

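None of the 10 genes passed between genotypes or in the interaction under any alternative fit or with any sample left out. In the comparison of tissues in WT mice 2 genes passed, and 1 passed without the filter on low counts, with DESeq2, with all 20 samples in one fit, with the replicate number as a block, with limma on log2(TPM + 0.5) and without the libraries high in choroid plexus genes, and 1 to 3 with a sample left out. In miR-324-null mice 0 passed, and 1, Enpp6, passed with the transcript length offset in edgeR and in DESeq2 and with limma on log2(TPM + 0.5). Of the slopes on the myelin score in the neocortex 1 passed, and 0 passed without the library high in choroid plexus genes, and 0 to 1 with a sample left out. The causes were not tested, other than that fits without a sample have fewer samples.

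Signs turned in values that had not passed. With the myelin score as a covariate the genotype difference became 0.0081 for Sox10 and 0.0366 for Enpp6 in the hippocampus and -0.00022 for Olig2 in the neocortex. With the length offset in edgeR, the offset in DESeq2 and limma on log2(TPM + 0.5), the neocortical genotype difference became -0.115, -0.118 and -0.0344 for Nkx2-2 and -0.0748, -0.0888 and -0.0015 for Enpp6, and the tissue difference in miR-324-null mice became 0.171, 0.162 and 0.077 for Cspg4. The latter became 0.0606 and 0.0522 for Nkx2-2 with the offset in edgeR and in DESeq2. Without the libraries high in choroid plexus genes the hippocampal genotype difference became 0.0193 for Sox10 and 0.0837 for Enpp6, the tissue difference 0.0085 for Bcas1 in WT mice and 0.0601 for Sox10 and 0.133 for Nkx2-2 in miR-324-null mice, the interaction 0.0664 for Enpp6 and the neocortical slope -0.149 for Cspg4.

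With a sample left out, the hippocampal genotype difference ran from -0.146 to 0.0051 for Pdgfra, -0.0477 to 0.0391 for Olig1, -0.0895 to 0.0228 for Olig2, -0.135 to 0.014 for Sox10, -0.0248 to 0.282 for Nkx2-2, -0.132 to 0.0125 for Gpr17, -0.197 to 0.0183 for Bcas1 and -0.15 to 0.0817 for Enpp6. The neocortical one ran from -0.0373 to 0.124 for Olig2 and -0.107 to 0.0406 for Gpr17. The tissue difference ran from -0.0254 to 0.133 for Olig2, -0.134 to 0.109 for Nkx2-2 and -0.142 to 0.0733 for Bcas1 in WT mice, and from -0.0835 to 0.0518 for Pdgfra, -0.0495 to 0.0279 for Cspg4, -0.0702 to 0.0217 for Olig2, -0.0826 to 0.0211 for Sox10 and -0.201 to 0.107 for Nkx2-2 in miR-324-null mice. The interaction ran from -0.151 to 0.159 for Nkx2-2 and -0.114 to 0.0475 for Gpr17. The slope on the myelin score ran from -0.143 to 0.365 for Pdgfra in the hippocampus, and from -0.697 to 0.122 for Pdgfra, -0.149 to 0.184 for Cspg4 and -0.751 to 0.0774 for Gpr17 in the neocortex.

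The labels do not pair same-numbered samples, and in no comparison was the correlation of deviations over 0.1 in every pair. It was over 0.1 in 1 of 5 pairs between the tissues of WT mice, 3 of 5 in miR-324-null mice and 1 of 5 between genotypes in each tissue. Between the tissues of miR-324-null mice all 5 were positive, with a median of 0.104 against -0.03 for pairs of other numbers. Of the 5 samples of the first group, 2, 3, 1 and 1 were closest to their own number. With the replicate block the counts of genes passed were 0, 0, 1, 0 and 0 for genotype in hippocampus and neocortex, tissue in WT and miR-324-null mice and the interaction. WT and miR-324-null samples are from different mice, so in the genotype and interaction fits a block joined different animals. Only in the comparisons of tissues could a block stand for a shared mouse. Precision was limited by 5 samples a group and, for Nkx2-2 and Enpp6, by few counts.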
